A study of Saccharomyces cerevisiae with 116 samples.

Results

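The salt time course in alpha factor comprised 5 of the 116 RNA libraries of the series, 1 library for each of the time labels T0, T15, T30, T45 and T60 (read here as minutes after addition of NaCl), all carrying replicate number 1 in the table without added fission yeast. They were picked by cell state, stress and replicate label and not by any measured value. The cells were budding yeast, Saccharomyces cerevisiae BY4741, a haploid laboratory strain of mating type a. All groups shared growth in YPD for 7 to 10 generations, and all 5 libraries of the course shared 2 h with 25 uM alpha factor, the mating pheromone of the opposite type, which holds a cells in G1. No label gives the NaCl dose of the course. The libraries set beside it are a second T0 library in alpha factor (replicate 2) and 2 T30 libraries labelled 0.5N and 0.7N with that same number. Further ones are 3 pairs of T30 and T0 libraries in alpha factor with added Schizosaccharomyces pombe cells, and 1 asynchronous T0 library. A course with the same times in nocodazole (10 ug/ml for 2 h, which holds cells in mitosis) is also given. A library labelled alpha t0' is described at the end only. All alpha factor libraries named here carry the same 25 uM and 2 h labels.

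High salt draws water out of a yeast cell and loads it with sodium. The cell answers through the Hog1 kinase pathway, which raises glycerol synthesis and retention, and through the transcription factors Msn2 and Msn4, which switch on a general defence programme of chaperones, antioxidant enzymes and reserve carbohydrates. Genes that make ribosomes are usually turned down at the same time. A dividing culture slows its growth under salt, whereas cells held in G1 by pheromone are already not dividing when the salt arrives, and the series set such states side by side.

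Read counts per open reading frame were scaled to the library total as CPM, and each time was compared with T0 as the difference of log2(CPM + 1). Of 6705 open reading frames, 5114 had a mean of at least 10 CPM over the course and are described. Below, a gene is said to have risen or fallen when it lay at least 2-fold above or below T0 (1 on the log2 scale). With 1 library per time no difference has a replicate check within the course, so no test was made. As a yardstick, the pair of T0 libraries without spike-in differed at least 2-fold at 38 of 5114 genes (0.743%), and the 3 pairs of spiked T0 libraries at 4.07, 5.91 and 1.96% of genes. Library totals ran between 2638185 and 4287811 counts over the course, and the 10 most abundant genes took 6.69 to 10.48% of a library. A lower total of messenger RNA per cell cannot be told apart from an unchanged one on this scale.

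The libraries bore the marks of a pheromone arrest at every time. All 8 pheromone-induced markers lay above the asynchronous T0 library in all 5 libraries: FUS1, a cell fusion gene, had 638, 729, 683, 572 and 447 CPM at T0, T15, T30, T45 and T60, against 15.7 CPM in asynchronous cells, and FIG1, a mating gene, had 1277, 1016, 742, 831 and 802 CPM, against 1.87 CPM. All 11 mitotic and S phase markers lay below it, with CLB2, the main mitotic cyclin, at 21.3 to 30.5 CPM against 140.3 CPM, and PCL1, a G1/S cyclin, at 0.933 to 4.17 CPM against 89.4 CPM. The summed level of the 11 genes was 315, 313, 404, 382 and 379.6 CPM over the course, against 1943 CPM in asynchronous cells, so the sum stayed far below the asynchronous level at every time. The a-cell genes STE2, the pheromone receptor, and BAR1, the pheromone protease, were at or above 1101 CPM throughout. Of 4 alpha-cell genes MF(ALPHA)1, which makes alpha factor, was at 0 in all 5, MF(ALPHA)2 was at 0.318 to 1.38 CPM, STE3, the a-factor receptor, at 8.29 to 12.4 CPM against 5.99 CPM in asynchronous cells, and SAG1, an agglutinin, at 35.1 to 56.4 CPM against 36.3 CPM. Their sum ran between 44.03 and 68.1 CPM, against 42.6 CPM in asynchronous cells, and that of 4 sporulation genes between 41.6 and 77.7 CPM, against 22.4 CPM. LEU2, MET17 and URA3, which the strain lacks, were listed at 0 in all 5, while HIS3, of which the strain keeps a part, had 26.8, 24.9, 27.1, 37.9 and 51.05 CPM.

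After salt a minority of genes passed 2-fold, most of them at T15, and many later lay within 2-fold of T0 again. At T15, 318 genes (6.22%) had risen and 268 (5.24%) had fallen. At T30 the counts were 260 (5.08%) and 134 (2.62%), at T45 207 (4.05%) and 192 (3.75%), and at T60 223 (4.36%) and 182 (3.56%). Over all times 947 genes (18.5%) passed 2-fold at least once. The median of all genes was 0.05, 0.08, -0.11 and -0.24 at T15, T30, T45 and T60 on the log2 scale, so the T60 values are centred below T0. The cause of that shift was not tested. TMM (trimmed mean of M values) scaling is built to bring the typical gene near no change. With it the T60 median was -0.03 and the T60 counts were 340 higher and 74 lower. The balance of rises and falls at T60 therefore depends on the scaling, and at T30 RLE (median-of-ratios) factors gave 220 higher and 183 lower, 54.6% of calls higher beside 66.0% with the library total.

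**Figure D1:**
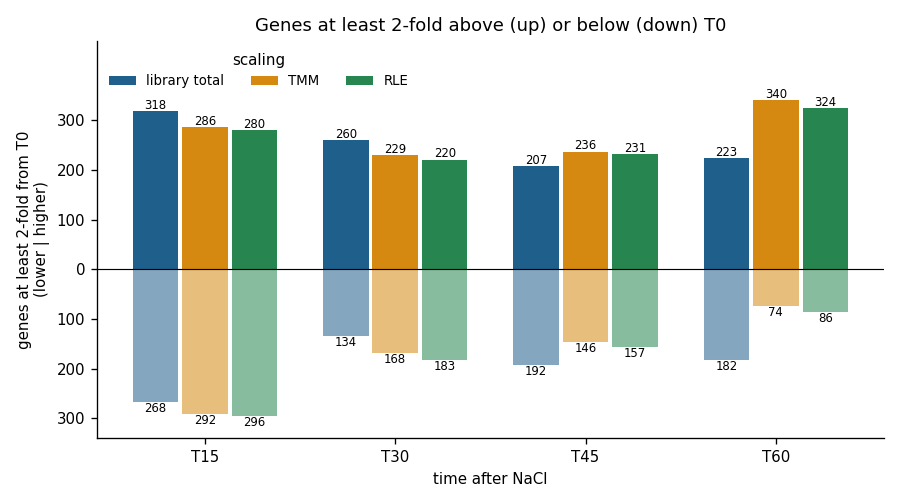
Number of genes at least 2-fold above T0 (bars upward) or below T0 (paler bars downward) at each time, for 3 ways of scaling the libraries, 1 library per time. At T60 the library total gives 223 higher and 182 lower, TMM gives 340 and 74, and RLE gives 324 and 86.

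The genes were sorted by when they stood past 2-fold: sustained at all 4 times; delayed at T30, T45 and T60 but not T15; late at T60 but neither T15 nor T30; and recovering at T15 or T30 but no longer at T60. Only times past 2-fold in the direction of a gene's largest difference counted. AGA2, more than 2-fold below T0 at T15, was therefore a late rise. Among rises, 83 genes (1.62%) were sustained, 23 (0.45%) delayed, 100 (1.96%) late and 268 (5.24%) recovering. Among falls, 38 (0.743%) were sustained, 15 (0.293%) delayed, 92 (1.8%) late and 222 (4.34%) recovering. Another 24 rises (0.469%) and 82 falls (1.6%) followed no such order. Passing at T15 and at no other time was the most frequent single pattern in both directions, with 121 rises and 115 falls. Both late classes rest on the T60 library alone or on T45 and T60, and they are the ones the scaling moved most: TMM gave 199 late rises and 32 late falls. At the boundary, GLG1 (1.01) and NQM1 (1.01) lay just inside 2-fold at T60, and FRE2 (0.99) and GDB1 (0.99) just outside.

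**Figure D2:**
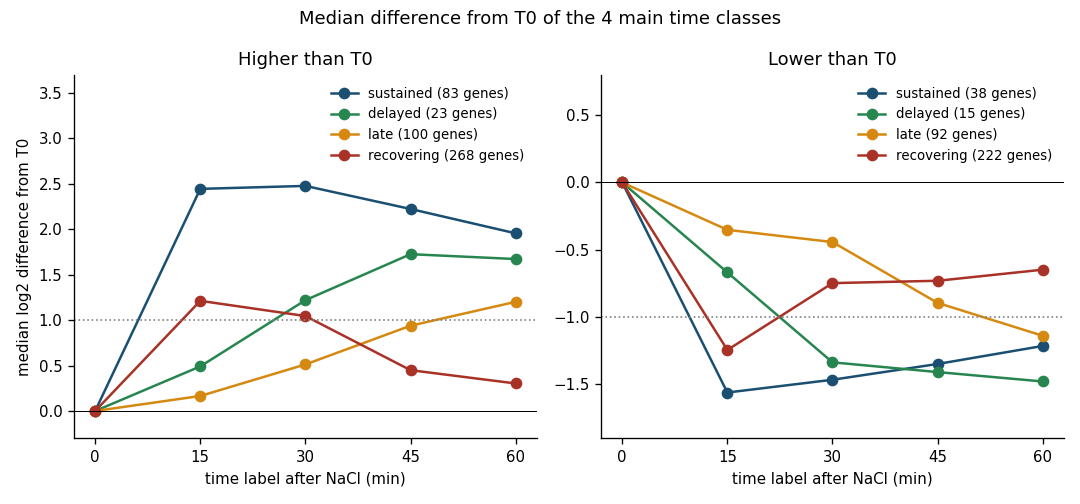
Median log2 difference from T0 of the genes in each time class (left, rises; right, falls) against the time label; points are medians over the genes of a class, 1 library per time, and the dotted line is the 2-fold threshold that defined the classes. Sustained rises stay near 2 to 2.48, whereas recovering rises pass 1.21 at T15 and end at 0.30.

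Return towards T0 was further along for rises than for falls on the library-total scale. Only genes whose largest difference lay in the same direction were taken, which leaves out those that later went further the other way. Of the 389 such genes that had risen at T15 or T30, 216 were highest at T15 and 125 at T30. The median gene of these kept 32.3% of its largest early log2 difference at T60. Under 50% was left at 251 of them (64.5%). Of the 312 such genes that had fallen, 206 were lowest at T15, the median gene kept 54.6%, and under 50% was left at 132 (42.3%). TMM scaling turned this order round, with 51.8% of rises and 62.9% of falls under 50% at T60, so the data do not give a firm order.

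STL1 had the largest rise among the named genes, and genes of glycerol synthesis rose with it. STL1, a glycerol importer of the plasma membrane, had 3.03, 1983, 972, 231 and 153 CPM at T0, T15, T30, T45 and T60. It was highest at T15, 654-fold above T0 (95% counting interval 382 to 1229, since T0 holds only 13 reads), and declined at each later time, with log2 differences of 8.94, 7.92, 5.85 and 5.25. GPD1, the glycerol-3-phosphate dehydrogenase that commits carbon to glycerol, had 839, 6008, 5308, 3245 and 2843 CPM. GPP2, which removes the phosphate to give glycerol, had 205, 2045, 2556, 1484 and 798 CPM and peaked 1 library later than GPD1. DAK1, a dihydroxyacetone kinase, had 447, 1400.4, 1910.4, 1932 and 1506 CPM, a plateau without a clear peak. Of the 11 genes listed for glycerol synthesis and transport, 4 rose and stayed, 4 rose and recovered and 3 never passed 2-fold. Over all genes 1.62% rose and stayed and 5.24% rose and recovered. The list median was 1.17, 1.43, 0.87 and 0.57 on the log2 scale.

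Sodium export behaved differently from glycerol import in its time course. ENA1, the sodium pump of the plasma membrane, had 94.5, 596, 534, 411 and 419 CPM, a level that was held from T15 on. ENA1 stands in a tandem array with near-identical copies, so its reads may be shared with them. VCX1, a vacuolar calcium exchanger, had 19.4, 115, 137, 117 and 109 CPM and was likewise held. These were the 2 of 20 ion transporter genes past 2-fold at T15, beside 6.22% higher among all genes. At T45 3 were up and at T60 5, 3 of them late, beside 4.05 and 4.36% of all genes up at T45 and T60. The list medians were 0.10, 0.10, 0.45 and 0.51. PMP3, a small plasma membrane protein and one of the late risers, had 181, 257, 302, 515 and 597 CPM, but T0 replicate 2 held 413 CPM of it, and against that library its T60 difference was 0.53. Of 22 components of the Hog1 pathway 1 rose at T15, beside 6.22% of all genes, and 1 fell, beside 5.24%. The riser was PTP3, a phosphatase that acts on Hog1, with 52.2, 162, 88.5, 69.7 and 61.2 CPM, and the gene that fell was SSK22, a kinase at the top of the pathway, with 121, 59.4, 66.5, 55.3 and 44.5 CPM. PTP3 was high at T15 alone.

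The general stress programme rose early, and much of it was still up at T60. Of 68 genes listed as Msn2 and Msn4 targets, 50 had risen at T15, 48 at T30, 43 at T45 and 35 at T60, and none had fallen at any time. Over all genes 6.22, 5.08, 4.05 and 4.36% had risen at those times. The list median was 1.67, 1.97, 1.39 and 1.07, against 0.05, 0.08, -0.11 and -0.24 for all genes. By class, 31 were sustained, 22 recovering, 4 late and 11 never past 2-fold. HSP12, a small membrane-associated stress protein, had 103, 2181, 4333, 2992 and 2620.3 CPM: it was highest at T30 and then held, with log2 differences of 4.40, 5.39, 4.85 and 4.66. CTT1, the cytosolic catalase, had 34.3, 1148, 819.6, 164 and 82.3 CPM, a steeper rise to T15, where it peaked, with log2 differences of 5.02, 4.54, 2.22 and 1.24. TKL2, a transketolase, had 4.90, 377, 615, 299 and 105 CPM, from 21 reads at T0. Among the genes that recovered, FMP48 had 8.86, 503, 132, 22.4 and 15.2 CPM, HSP42, a small heat shock protein, had 65.5, 740.2, 491, 183 and 125 CPM, and GID10, a substrate receptor of the GID ubiquitin ligase, had 4.90, 79.8, 70.3, 11.4 and 8.23 CPM. All 3 were within 2-fold of T0 again at T60.

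Most reserve carbohydrate genes rose, some to recover and some to stay up. TPS2, the phosphatase that completes trehalose, had 395, 3131, 2040.5, 799 and 527 CPM and recovered. TSL1, a regulatory subunit of the trehalose synthase, had 373, 2121, 2676, 1850.5 and 1316 CPM and stayed up. PGM2 and UGP1, which lead glucose phosphate into UDP-glucose, had 191, 824, 1237, 918 and 554 CPM and 889.5, 2485, 4505, 4851 and 3972 CPM, UGP1 with its highest value as late as T45. Of the 17 trehalose and glycogen genes 5 were sustained, 8 recovering, 1 late, 1 in no ordered class and 2 never past 2-fold. Over all genes 1.62% were sustained and 5.24% recovering rises. The list medians were 1.38, 1.34, 1.01 and 0.53.

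Several regulators of the response were highest at T15. MSN2 itself had 73.5, 307, 160.1, 105 and 75.2 CPM, 4.18-fold up at T15 and back at T0 level by T60, whereas MSN4, its paralog, had 45.9, 42.5, 45.5, 56.5 and 44.5 CPM and never moved past 2-fold. CIN5, a bZIP transcription factor, had 10.3, 154, 38.5, 14.03 and 23.2 CPM, a rise that was nearly gone at T45 and stood at 1.11 on the log2 scale at T60. YAK1, a kinase that restrains growth, had 96.6, 273, 179.8, 126 and 112 CPM, and GIS1, a stress transcription factor, had 72.8, 185, 115, 90.2 and 91.9 CPM. Of 24 genes for protein kinase A, Ras and stress regulators 6 rose and recovered, 1 rise was sustained and 1 fell and recovered. The shares over all genes were 5.24, 1.62 and 4.34%. List medians were 0.32, 0.40, 0.07 and -0.16. The sustained one was USV1, a zinc finger factor with 10 reads at T0, whose T60 difference of 1.54 was 0.69 against T0 replicate 2.

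Most heat shock factor targets lay within 2-fold of T0 at T60. Of 30 heat shock factor targets, 11 had risen at T15 and 2 at T60, beside 6.22 and 4.36% of all genes. The list median was 0.42, 0.33, 0.11 and -0.18. HSP26, a small heat shock protein, had 29.9, 146, 180.5, 147 and 111 CPM, and HSP78, a mitochondrial disaggregase, had 235, 775, 637, 433 and 331 CPM. T0 replicate 2 held 56.8 CPM of HSP26, and against that library its T60 difference was 0.96. Of 26 antioxidant genes 6 passed 2-fold at some time, beside 18.5% of all genes. SOD1, the cytosolic superoxide dismutase, had 438, 603, 796, 1152 and 1355 CPM, climbing at each step to its highest value at T60, unlike CTT1 of the same list. None of 36 proteasome genes passed 2-fold, but all 36 were lower at T60 than at T15 (median of the difference -0.60, beside -0.27 over all genes). With TMM scaling 4 of them were higher at T60 than at T15.

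**Figure D3:**
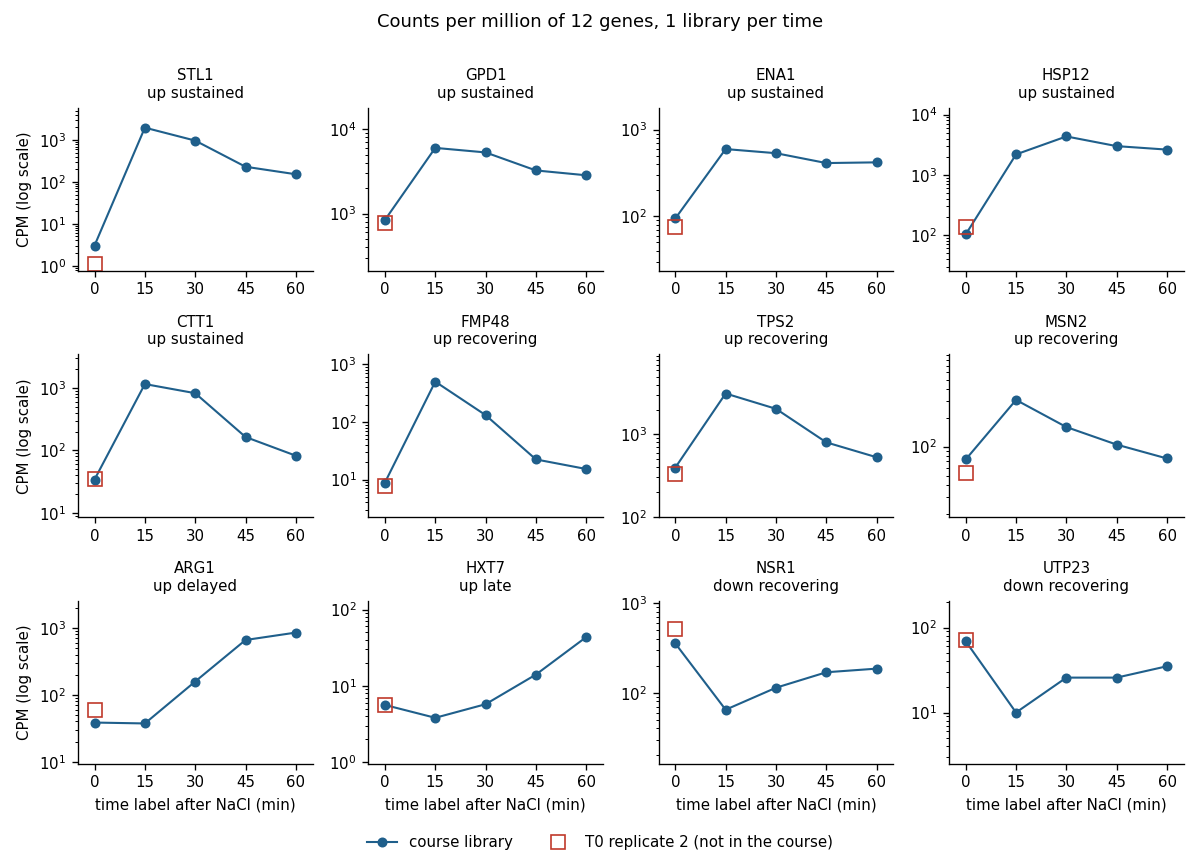
CPM of 12 genes on a log axis against the time label, 1 library per time (filled points, joined); the open square is the second T0 library, which the course does not use. STL1, CTT1 and FMP48 peak at T15 and fall off, HSP12 and ENA1 stay up, ARG1 and HXT7 start to climb at T30 or later, and NSR1 and UTP23 are lowest at T15.

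Genes for making ribosomes fell together at T15 and had come back only in part. Of 134 ribosome biogenesis genes, 93 had fallen at T15, 21 at T30, 58 at T45 and 27 at T60, and none had risen at any time. Over all genes 5.24, 2.62, 3.75 and 3.56% had fallen at those times. The list median was -1.23, -0.67, -0.96 and -0.79. The path was not a smooth return: 121 of the 134 were higher at T30 than at T15, but only 31 were higher at T45 than at T30, and 99 were higher at T60 than at T45. The step between T30 and T45 had a median of -0.22 in the list and -0.19 over all genes, and with TMM scaling -0.07 and -0.03, so the list and all genes dipped by similar amounts. By class, 71 recovered, 9 were sustained, 4 were late, 21 followed no order and 29 never passed.

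NSR1, a nucleolar protein of ribosomal RNA processing, had 354, 64.6, 114, 169 and 186 CPM, lowest at T15 (-2.44 on the log2 scale) and 0.93 below T0 at T60. T0 replicate 2 held 515 CPM of it. UTP23, a component of the small subunit processome, had 69.03, 10.02, 25.8, 25.8 and 35.1 CPM, and DHR2, a helicase of ribosomal RNA processing, had 39.9, 6.22, 14.3, 14.4 and 18.6 CPM. Both were lowest at T15 and below T0 at T60, where the difference of DHR2 was -1.06, or -0.86 with TMM scaling. In the list of RNA polymerase I and III subunits 8 of 25 fell and recovered, beside 4.34% of all genes. Among them was RPC53 of polymerase III with 90.02, 30.7, 69.7, 61.4 and 52.7 CPM. TOD6, a repressor of ribosome biogenesis genes, itself fell and stayed down, with 128, 28.3, 45.2, 44.7 and 58.1 CPM, while its paralog DOT6 had 81.4, 65.98, 46.2, 56.9 and 54.4 CPM and did not pass 2-fold. The T60 difference of TOD6 of -1.12 was -0.92 with TMM scaling and -0.80 against T0 replicate 2.

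Ribosomal protein genes moved in the same direction as the biogenesis genes at T15, but few passed 2-fold. Of 138 cytosolic ribosomal protein genes, 132 never did, whereas 18.5% of all genes did at some time. At T15 4 had fallen, beside 5.24% of all genes, and at T60 2 had risen, beside 4.36%. Below T0 by any amount were 113 of the 138 at T15 and 46 at T60. Between T15 and T60 the median step was 0.42, beside 0.43 in the biogenesis list and -0.27 over all genes. The ribosomal protein median was -0.30, -0.24, -0.11 and 0.16, below that of all genes at T15 and above it at T60. The T60 value depends on the reference: it was 0.38 with TMM scaling and -0.12 against T0 replicate 2, whose own median for the list was 0.23 above that of replicate 1. RPL3, a single-copy gene of the large subunit, had 2599, 1999.7, 2007, 2342 and 2383 CPM. RPL37B, RPS27B and RPS9A, the members furthest below T0, each share sequence with a near-identical partner gene, and their own counts are uncertain for that reason. None of 38 translation factor genes passed 2-fold, beside 18.5% of all genes (list median -0.37, -0.26, -0.31 and -0.38).

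Other early falls lay in uptake and nucleotide salvage. AAH1, adenine deaminase, had 112, 29.02, 14.96, 18.95 and 41.9 CPM. CTR1, the copper importer, had 178, 58.4, 42.01, 26.2 and 39.4 CPM, and FRE7, a copper-regulated reductase, had 101, 29.7, 15.9, 28.1 and 24.4 CPM. All 3 stayed down at every time. HPT1, which salvages hypoxanthine and guanine, had 71.1, 11.7, 61.4, 65.6 and 65.3 CPM: it fell at T15 and differed from T0 by -0.12 on the log2 scale at T45 and T60. The second T0 library held 125 CPM of HPT1. PHO84, the high-affinity phosphate importer, had 1509, 315, 1336, 2432 and 2970.4 CPM, a dip at T15 (-2.26 on the log2 scale) followed by 0.98 above T0 at T60. Sulfur amino acid genes were lowest at T30, with a list median of -0.72, -0.86, -0.26 and -0.40 over 24 genes. Of these 9 fell and recovered, beside 4.34% of all genes. Within that list SAM1, an S-adenosylmethionine synthetase, had 327, 90.8, 83.4, 166 and 194 CPM, and MET6, methionine synthase, had 1862, 1015, 553, 1023 and 999.9 CPM.

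Amino acid synthesis genes rose later. Of 49 such genes 1 was up at T15, 3 at T30, 7 at T45 and 14 at T60, beside 6.22, 5.08, 4.05 and 4.36% of all genes. At T15 2 had fallen, beside 5.24%. By class, 11 were late, 2 delayed and 1 sustained, beside 1.96, 0.45 and 1.62% of all genes. The list median was -0.23, -0.05, 0.52 and 0.73, climbing while the median of all genes sank. ARG1, argininosuccinate synthase, had 38.5, 37.3, 158, 661 and 853 CPM, 22.2-fold above T0 at T60, and ARG3, ornithine carbamoyltransferase, had 8.63, 17.3, 83.1, 182 and 107 CPM, with its peak at T45. ARG56, the gene also written ARG5,6, had 165, 137, 317, 762 and 684 CPM. The arginine genes were looked at further after their values were seen: ARG8, an aminotransferase, had 44.3, 28.7, 74.8, 126 and 115 CPM, and ARG4, the last enzyme, had 788, 522, 979, 1335 and 1329.6 CPM and did not pass 2-fold. LYS20, homocitrate synthase, was the 1 sustained riser, with 132, 313, 326, 470.02 and 519 CPM.

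Sugar transport showed an early and a late set. HXT1, the low-affinity glucose carrier, had 169, 1895, 1106, 548 and 393 CPM and HXT5, a carrier of moderate affinity, had 19.8, 328, 420.5, 219.8 and 134 CPM, both sustained and highest at T15 or T30. HXT4 had 30.1, 42.8, 30.2, 47.4 and 114 CPM and HXT7, a high-affinity carrier, had 5.60, 3.80, 5.73, 14.03 and 43.5 CPM, both near T0 until T30 and highest at T60. HXT7 is nearly identical to HXT6, and its T0 value rests on 24 reads. Of the 10 transporters that passed the expression filter 6 were up at T60, beside 4.36% of all genes. The transporter median was -0.07, 0.02, 0.67 and 1.22. Glycolytic genes climbed in parallel but mostly within 2-fold: 2 of 19 passed, beside 18.5% of all genes. These were ENO1, an enolase, with 1039, 1104, 1208, 1888 and 2440.3 CPM and TDH1, a glyceraldehyde phosphate dehydrogenase, with 268, 339, 387, 499.6 and 662 CPM. Each has a close paralog. The list median was -0.01, -0.04, 0.24 and 0.38.

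Several cell surface and iron genes passed 2-fold only from T30 on. MRH1, a plasma membrane protein, had 55.97, 51.5, 149, 353 and 443 CPM, PIR3, a cell wall protein, had 17.3, 30.4, 95.8, 121 and 91.2 CPM, and PRY1, a secreted sterol-binding protein, had 11.2, 13.8, 27.1, 52.7 and 81.3 CPM. All 3 were within 2-fold of T0 at T15 and past it from T30 on. T0 replicate 2 held 25.6 CPM of PRY1, close to its T30 value in the course, and 75.2 CPM of MRH1. In the 3 spiked pairs, at 0.5N and at 0.7N the T30 difference was 1.49 to 2.65 for PRY1 and 1.92 to 2.88 for MRH1. Of the 26 iron and copper genes 4 rises were delayed, 2 late and 4 recovering, beside 0.45, 1.96 and 5.24% of all genes. In the same list 3 falls were late, 3 sustained and 1 recovering, beside 1.8, 0.743 and 4.34%. Among the delayed rises was FIT2, a cell wall mannoprotein of siderophore uptake, with 4.43, 9.33, 22.6, 21.98 and 32.4 CPM. In the same list HMX1, haem oxygenase, had 72.8, 107, 123, 34.1 and 19.1 CPM and TIS11, which promotes decay of messages of iron-using proteins, had 79.5, 108, 126, 53.8 and 24.4 CPM: both were above T0 at T30 and fell only later. FET3, the multicopper oxidase of iron uptake, named after its values were seen, had 1132, 1267, 2597, 3138 and 2456 CPM. NCW2, a cell wall protein, was a late fall with 261, 255, 179, 71.6 and 71.1 CPM, but T0 replicate 2 held 136 CPM of it, and against that library its T60 difference was -0.93.

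Delayed and late falls included genes outside the lists. BDF2, a bromodomain protein, had 181, 116, 79.9, 48.1 and 44.5 CPM, DUR12, the gene also written DUR1,2 for urea amidolyase, had 666, 564, 261, 168 and 169 CPM, and NPL3, a messenger RNA binding protein, had 362, 200.3, 166, 130.01 and 105 CPM. All 3 were within 2-fold of T0 at T15 and past it from T30 on. At T30, where NPL3 stood at -1.12 in the course, it differed from T0 by -0.28, 0.08, -0.25, -0.82 and -2.04 in spiked pairs 1, 2 and 3, at 0.5N and at 0.7N. The open reading frame YOR385W had 127, 115, 49.7, 33.7 and 26.6 CPM and PUG1, a transporter of the porphyrin pathway, had 49.4, 30.7, 14.6, 15.9 and 20.6 CPM, both also delayed. Against T0 replicate 2 the T60 difference of PUG1, -1.23 in the course, was -0.67. VRP1, verprolin of the actin cytoskeleton, had 51.3, 31.8, 28.6, 14.03 and 12.3 CPM and NIS1, a bud neck protein, had 182, 116, 97.1, 71.6 and 53.5 CPM, with their lowest values at T60. ERG6, a sterol methyltransferase, was a late fall with 481, 406, 316, 254 and 218 CPM, but its T60 difference of -1.14 became -0.93 with TMM scaling.

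Most pheromone response genes stayed within 2-fold of T0, while several fell past it. Over 39 pheromone response genes the median was -0.20, -0.23, -0.36 and -0.56, beside 0.05, 0.08, -0.11 and -0.24 over all genes, and with TMM scaling -0.25, -0.31, -0.28 and -0.35. Of the 39, 28 never passed 2-fold, a smaller share than over all genes, where 4167 of 5114 never did. At T15, T30, T45 and T60, 5, 2, 4 and 7 of the 39 had fallen. Over all genes 5.24, 2.62, 3.75 and 3.56% had fallen at those times. KAR3, a kinesin of nuclear fusion, had 537, 266, 227, 162 and 177 CPM and fell at every time. SCW10, a cell wall glucanase, had 1868, 1316, 660.1, 1081 and 1593 CPM and was back near T0 at T60, and AGA2, an agglutinin subunit, had 587, 271, 462, 1094 and 1476 CPM, low at T15 and past 2-fold above T0 at T60. IME4, a messenger RNA methyltransferase gene, stood at 532 CPM at T0, against 1.87 CPM in asynchronous cells, and had 532, 166, 121, 103 and 94.8 CPM over the course. The sources used here do not say whether the counting used strand, so sense and antisense reads of that gene cannot be told apart. AMN1 and SCW11, both of the end-of-mitosis set, fell at T15, with 1025, 252, 459, 722 and 533 CPM and 379, 91.5, 93.6, 156 and 161 CPM.

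Cell cycle lists had medians within 2-fold of T0, while single members passed it. The medians at T15, T30, T45 and T60 were -0.14, -0.14, -0.36 and -0.45 for 36 G1/S genes, 0.17, 0.07, -0.09 and -0.16 for 27 G2/M genes and -0.48, -0.61, -0.47 and -0.67 for 27 M/G1 genes. At some time 12 of the G1/S, 2 of the G2/M and 11 of the M/G1 genes passed 2-fold, beside 18.5% of all genes. In the M/G1 list 6, 7, 4 and 6 genes had fallen at T15, T30, T45 and T60, beside 5.24, 2.62, 3.75 and 3.56% of all genes. Another 1, 2, 2 and 2 of that list had risen, beside 6.22, 5.08, 4.05 and 4.36%. PIR1 had risen at every time and PIR3 from T30 on. In the G1/S list 5, 3, 2 and 1 genes had risen and 2, 3, 3 and 4 had fallen at those times. The shares over all genes are those given for the M/G1 list. CLN2, a G1 cyclin, had 32.7, 17.3, 14.6, 19.7 and 21.5 CPM, low against 111 CPM in asynchronous cells at every time. CLN1, another G1 cyclin, rose and recovered, with 6.53, 23.8, 14.3, 13.3 and 10.2 CPM, against 96.9 CPM in asynchronous cells. The 10 histone genes had medians of 0.29, 0.76, 0.47 and 0.49, and 5 of them passed 2-fold at some time, 4 recovering and 1 late. HTA2 had 10.7, 24.5, 31.8, 20.5 and 18.6 CPM, against 244 CPM in asynchronous cells. Histone genes come in near-identical pairs, and T0 replicate 2 lay 0.27 above replicate 1 over the list. Against replicate 2 the T30 difference of HTA2 was 0.89.

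Other lists had medians within 2-fold of T0. Respiratory chain genes had a median of 0.20, 0.39, 0.31 and 0.41, with 6 of 38 rising late, beside 1.96% of all genes. Another 1 rose and recovered and 2 fell and recovered, beside 5.24 and 4.34%. The 1 sustained riser, beside 1.62%, was CYC7, an isoform of cytochrome c, with 3.50, 23.5, 38.5, 16.3 and 14.5 CPM. Pentose phosphate genes split into 5 sustained risers, beside 1.62% of all genes, and 7 of 13 that never passed. Among the risers was SOL4, a phosphogluconolactonase, with 7.70, 128, 167, 75.8 and 46.9 CPM. Medians at T15, T30, T45 and T60 were -0.26, -0.39, -0.17 and -0.23 for 25 ergosterol genes, -0.33, -0.23, -0.14 and -0.15 for 27 purine and pyrimidine genes, 0.47, 0.35, 0.23 and -0.22 for 24 autophagy and vacuole genes, and -0.36, -0.32, -0.06 and 0.21 for 27 cell wall genes. SPI1, a cell wall protein of that last list, nevertheless rose and stayed up, with 17.96, 301, 237, 135 and 96.8 CPM.

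Libraries that the course did not use gave the T30 change of the same genes a second look, in 3 spiked pairs and in the T30 libraries labelled 0.5N and 0.7N, both set against T0 replicate 2 and so sharing it. In those 5 pairs 78 to 83 of the 83 sustained risers lay above T0 at T30, with medians of 2.46, 2.92, 2.34, 1.74 and 2.53, beside 2.48 in the course. For the 268 recovering risers, 240 to 260 lay above, with medians of 0.71, 1.15, 1.02, 0.52 and 0.99, beside 1.04. The 23 delayed risers lay above T0 in all 5 pairs, with medians of 1.40, 1.59, 1.43, 1.30 and 1.36, beside 1.22. Late risers had medians of 0.46, 0.68, 0.30, 0.53 and 0.49, beside 0.51, and 77 to 91 of 100 lay above. All 38 sustained falls lay below T0 in 4 pairs and 35 in spiked pair 2, and recovering falls lay below in 193 to 213 of 222. Of the 15 delayed falls 13 to 15 lay below and 5 to 11 past 2-fold, and of the 92 late falls 56 to 84 lay below, fewest in spiked pair 2. A count on the same side is not a high bar. In the course 2967 of 5114 genes lay above T0 at T30 and 2147 below. That share was not worked out for the 5 pairs, where the medians of all genes were -0.05, 0.17, 0.06, -0.01 and 0.03. Over all genes, 4.11% were at least 2-fold higher and 3.36% lower at T30 in spiked pair 1, 9.56 and 3.23% in pair 2, 5.65 and 2.27% in pair 3, 3.44 and 1.64% at 0.5N, and 6.18 and 5.4% at 0.7N.

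For single genes, STL1 differed from T0 by 8.01, 7.97, 7.81, 6.42 and 8.95 in spiked pairs 1, 2 and 3, at 0.5N and at 0.7N, beside 7.92 in the course. CTT1 differed by 4.73, 5.35, 5.02, 2.56 and 4.87, beside 4.54, and FMP48 by 3.81, 5.48, 4.29, 1.51 and 3.88, beside 3.75. All 3 were lowest at 0.5N. HSP12 differed by 4.65, 5.86, 5.26, 4.72 and 5.18, beside 5.39, and ARG3 by 3.12, 3.78, 3.67, 3.95 and 3.43, beside 3.13. NSR1 differed by -1.80, -2.002, -1.65, -1.50 and -2.46, beside -1.63, and TOD6 by -1.01, -1.22, -0.93, -0.61 and -1.45, beside -1.48. HXT7, near T0 at T30 in the course, ranged between -0.20 and 2.58 over the 5 pairs, and CLN2 between -1.37 and 1.81. In spiked pair 2, with the highest CLN2, the G1/S list median was 1.18, beside -0.14 in the course, so that pair did not hold its G1/S genes low at T30. Scaled to the added S. pombe counts, the median of all genes at T30 was 0.16, 0.50 and 0.57 in the 3 spiked pairs, and -0.05, 0.17 and 0.06 with the library total.

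**Figure D4:**
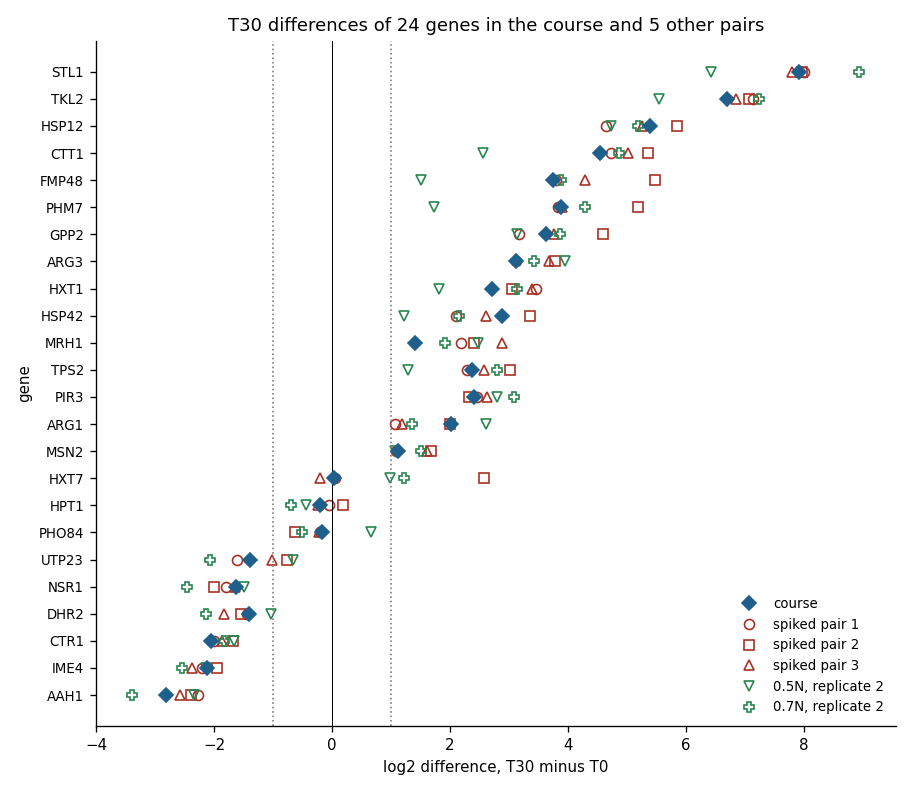
Log2 difference between T30 and T0 of 24 genes in the course (filled diamonds), in 3 spiked pairs (red) and in the 0.5N and 0.7N libraries against T0 replicate 2 (green), each point 1 pair of libraries; dotted lines mark 2-fold. STL1 lies between 6.42 and 8.95 in every pair and AAH1 between -3.39 and -2.28, while HXT7 spreads on both sides of 2-fold.

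The nocodazole course, also 1 library per time, gives the same lists in cells held in mitosis. The general stress median was 1.67, 1.97, 1.39 and 1.07 in alpha factor and 2.89, 3.41, 2.38 and 2.66 in nocodazole. Ribosome biogenesis was at -1.23, -0.67, -0.96 and -0.79 in alpha factor and at -1.44, -2.42, -1.31 and -1.09 in nocodazole, and ribosomal proteins at -0.30, -0.24, -0.11 and 0.16 in alpha factor and at -0.50, -1.65, -0.62 and -0.998 in nocodazole. At T30, 260 genes were higher and 134 lower in alpha factor, against 589 (11.5%) and 766 (15%) in nocodazole. The nocodazole values here use the 5114 genes that passed the expression filter in the alpha factor course. That set keeps genes low in nocodazole, such as FIG1 with 1.21 CPM at its T0. It leaves out some that were higher there, such as CLB1 with 87.4 CPM. The shares of genes higher and lower in nocodazole were 11 and 10.3% at T15, 6.84 and 10% at T45, and 6.75 and 8.58% at T60. With 1 library per time in each, the difference between the courses was not tested.

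**Figure D5:**
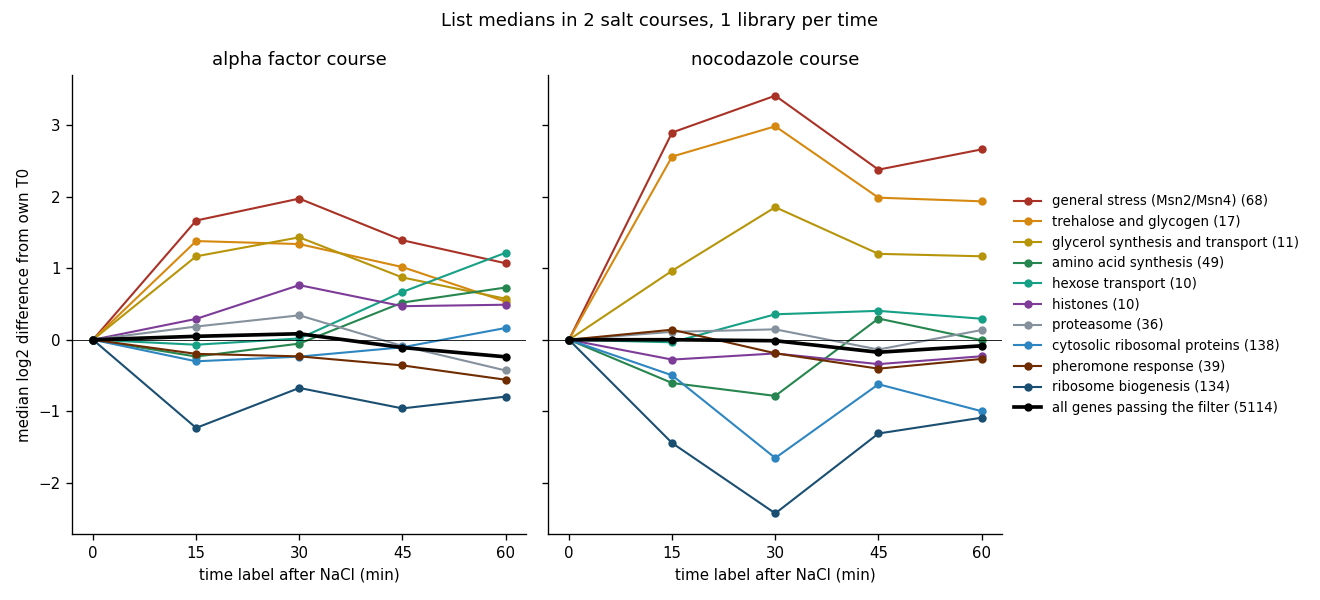
Median log2 difference from each course's own T0 for 10 gene lists and all genes (number of genes in brackets) in the alpha factor course (left) and the nocodazole course (right), 1 library per time. Both panels use the genes that passed the expression filter in the alpha factor course. In alpha factor the ribosome biogenesis list is lowest at T15 (-1.23), and in nocodazole at T30 (-2.42).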

How the data were processed

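The authors deposited whole-number read counts for each open reading frame, made with Trimmomatic 0.32, Bowtie2 and HTSeq 0.6.1 per the submitters' processing notes. The genome build, the annotation and the use of strand are not stated in these sources. The labels do not say whether libraries came from separate cultures. Of 6705 open reading frames 6018 matched a symbol in the table of RefSeq genes (R64), 8 empty lines were dropped, and 70 count columns that match no labelled sample were not used here. The counts were checked to be whole numbers.

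From them CPM of the library total over named open reading frames, log2(CPM + 1) and the difference from T0 replicate 1 were computed, with a minimum mean of 10 CPM over the 5 libraries and a threshold of 1 on the log2 scale (Python 3.11.15, pandas 2.3.3; TMM and RLE factors from edgeR 4.0.16 in R 4.3.3). Alternatives were other scalings, pseudocounts (0.25 and 5 CPM), filters, T0 libraries, a threshold of 1.5 and the classes without T45. The class rule recovered seeded changes in simulated counts. Those changes lay far from the threshold and only counting error was simulated. The simulation therefore says nothing about genes near the threshold or about variation between libraries. Counting intervals are 95% exact and cover counting error only. Named genes were the 5 with the largest difference in each class and direction, up to 4 members of each list, a fixed set of stress, cell cycle and strain genes, and the 2 on each side of the threshold. The genes, the 33 lists and the comparison itself were chosen with earlier results of these data known. Not every gene these rules name is printed. Promoter motifs were not examined here, and 1 item is not reported here.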

Additional observations from a re-analysis of the deposited data

Results flagged for a closer look

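The histone genes were picked from the lists by a rule on these same values. The rule asked for medians above T0 at every time in 1 course and below T0 at every time in the other. Opposite signs are therefore the rule itself and no added support. At T30 of salt the median log2 difference of the 10 histone genes from T0 was 0.76 in the alpha factor course and -0.19 in the nocodazole course. At T15, T45 and T60 it was 0.29, 0.47 and 0.49 in alpha factor and -0.28, -0.34 and -0.23 in nocodazole. The difference was not tested, since each course has 1 library per time. In the 5 other alpha factor pairs the T30 median of the list was 0.28, 0.91, 0.77, 0.63 and 0.74 (spiked pairs 1, 2 and 3, 0.5N and 0.7N). The G1/S list median in those pairs was -0.21, 1.18, 0.26, -0.14 and -0.06, so spiked pair 2 was highest for both lists. Whether the 2 lists are linked was not tested. The second T0 library in alpha factor lay 0.27 above the first over these genes.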

How the results depend on the processing

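Of 276 recomputed counts, percentages and list medians, 219 stayed within their limits and 57 moved. TMM scaling gave 199 late rises, 20 sustained, 32 late and 46 unordered falls, 340 higher and 74 lower genes at T60, 51.8% of rises and 62.9% of falls under 50% at T60, and T60 medians of -0.58 for ribosome biogenesis and 0.38 for ribosomal proteins; RLE gave 190, 24, 35 and 54 for the same classes, 86 lower genes at T60, 52.4 and 62.4%, medians of -0.61 and 0.35, and -0.35 for ribosomal proteins at T30. A pseudocount of 5 CPM gave 14 unordered rises and 52 unordered falls. A filter of 1 CPM gave 35 delayed and 60 unordered rises, and no filter 36 and 88, with 319 higher genes at T45 and 59.4% of rises under 50%. Against T0 replicate 2 there were 72 sustained, 147 late and 127 unordered falls, 310 lower genes at T45 and 304 at T60, 32.6% of falls under 50%, ribosome biogenesis medians of -1.45, -0.88 and -1.02 at T15, T30 and T60, and ribosomal protein medians of -0.57, -0.49, -0.33 and -0.12 at T15, T30, T45 and T60; against the mean of both T0 libraries the last were -0.45, -0.37, -0.23 and 0.0081. Classes without T45 had 9 unordered rises and 29 unordered falls. A threshold of 1.5 gave 44 sustained, 10 delayed, 30 late, 113 recovering and 13 unordered rises, and 5, 4, 18, 88 and 6 falls in that order. Scaled to the added S. pombe counts, the T30 medians in spiked pairs 1, 2 and 3 were 1.76, 2.70 and 2.35 for general stress, -0.72, -0.44 and -0.15 for ribosome biogenesis and -0.19, 0.08 and 0.24 for ribosomal proteins. The cause of these shifts was not tested. Of 194 named gene values past 2-fold, 37 fell short of it under some setting, and 1 changed sign, ATP18 at T15, with -1.17 against T0 replicate 1 and 0.033 against replicate 2. No paired analysis was possible because each time of the course is 1 library; for the same reason no library could be left out within a time.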

Other observations

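A few genes passed 2-fold in both directions within the hour; they were picked for that, after their values were seen. FUI1, the uridine permease, had 193, 80.1, 142, 364 and 585 CPM at T0, T15, T30, T45 and T60, and GGC1, a mitochondrial carrier of guanine nucleotides, had 49.2, 18.3, 37.2, 83.4 and 113 CPM. Both were low at T15 and above T0 from T45 on. STR3, a lyase of methionine synthesis, had 20.8, 8.64, 13.7, 43.6 and 24.4 CPM, and NCA3 had 8.63, 3.80, 9.55, 19.3 and 18.6 CPM. ARO10, a decarboxylase of aromatic amino acid breakdown, ran the other way, with 214, 500.2, 502, 207 and 87.1 CPM.

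The library labelled alpha t0', a label the sources used here do not explain, is in no comparison above. Its FUS1 level was 17.8 CPM, FIG1 0.659 CPM and CLB2 137 CPM. The summed level of the 8 pheromone-induced markers was 480.1 CPM there, against 519.6 CPM in the asynchronous T0 library and 7581 to 10457 CPM over the course. The 11 mitotic and S phase markers summed to 1672 CPM there, against 1943 CPM in the asynchronous T0 library.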
